A study of Mus musculus with 4 samples.

Results

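Boundaries found only in embryonic stem cells were examined in Micro-C maps of E14 mouse embryonic stem cells (ESCs) and of the cervical motor neurons (MNs) differentiated from them. Micro-C joins pieces of chromatin that touch each other in cross-linked nuclei after digestion with micrococcal nuclease, so that the number of contacts between any pair of positions can be counted. The 4 groups were WT ESCs, PATZ1 KO ESCs, WT MNs and PATZ1 KO MNs, with 1 library each. ESCs of either genotype were kept with LIF and 2i, and MNs of either genotype were obtained through embryoid bodies patterned with retinoic acid at 1 μM and the smoothened agonist SAG at 0.5 μM. The KO carried a CRISPR-made disruption of Patz1, which encodes a zinc finger protein that the study examined as an insulation factor. With 1 library per group analysed here, no difference below has a replicate check and no p-value was computed. The deposited contacts come in a first and a second column for each cell state, which were read as WT and PATZ1 KO from the way the comparison is titled, and every direction between genotypes rests on that reading.

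A boundary is a position across which contacts are scarce, so that the chromatin on its left and on its right forms separate domains. In mammalian cells many boundaries are places where cohesin, which extrudes loops of chromatin, is halted by CTCF, a zinc finger protein with a directional DNA motif. Others lie at active or densely packed genes, and boundaries can be gained or lost as cells differentiate.

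The insulation score used here counts the contacts in a square of 31 by 31 bins of 8 kb that spans a bin, and takes the log2 of that count over the mean of the chromosome, so that a lower score means fewer contacts across. Boundaries were chosen by this score, in the sum of both genotypes of a cell state: the lowest score within 15 bins on each side, below -0.5, with at least 500 contacts in every square of the 31 bins of that window. A boundary counted as found only in ESCs when no MN boundary lay within 5 bins and when the score of the same bin was higher by at least 0.3 in the MN sum. On the 19 autosomes 503 boundaries met this rule, of 2612 ESC boundaries and of 3549 boundaries in either cell state. Of the other ESC boundaries, 1762 were shared with MNs and 347 had no MN boundary near them but rose by less than 0.3. A further 632 boundaries were found only in MNs by the mirrored rule.

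To show what lies at such boundaries, DNA at a few of them is printed here (GRCm38, 5′ to 3′). The following 30-base stretches hold a match to the CTCF core motif, in capitals, in the boundary's bin or a bin next to it. They were taken from the boundary at Rpl3, which encodes a protein of the large ribosomal subunit, from the boundary at Rpl30, another such gene, from that at Rps27, which encodes a protein of the small subunit, and from the boundary at Madcam1 and Cdc34.
Rpl3, chr15:80080794-80080823, minus strand: ttaaatcaaCCAGCAGAGGGCactgtgaca
Rpl30, chr15:34438592-34438621, minus strand: ccattgaggCCAGTAGAGGGCattgaattc
Rps27, chr3:90220355-90220384, plus strand: cactgtgctCCACCAGGGGGCagattgatc
Madcam1 and Cdc34, chr10:79683003-79683032, minus strand: aaatgcttgCCAGCAGGGGGCtccagaggc
Madcam1 and Cdc34, chr10:79683488-79683517, minus strand: agcgtgaagCCACCAGAGGGCagacgacac
At Rps27 the boundary lies by a pair of genes that start back to back. Such pairs, with starts at most 1000 bases apart, lay within 1 bin at 27 of 503 boundaries (5.37%). The share was 4.26% at shared boundaries and 0.723% of all scored bins. Where 2 or more protein-coding genes started within 1 bin, the shares were close to each other. They were 24.5% at boundaries found only in ESCs (26 of 106), 27.6% at shared boundaries and 21.4% of all scored bins. The promoter of Rps27, from 250 bases before to 50 bases after its start as RefSeq gives it (GRCm38.p6), reads as follows, with capitals for the 66 bases between its own start and that of Rab13, a small GTPase gene transcribed the other way.
Rps27, chr3:90213599-90213898, minus strand: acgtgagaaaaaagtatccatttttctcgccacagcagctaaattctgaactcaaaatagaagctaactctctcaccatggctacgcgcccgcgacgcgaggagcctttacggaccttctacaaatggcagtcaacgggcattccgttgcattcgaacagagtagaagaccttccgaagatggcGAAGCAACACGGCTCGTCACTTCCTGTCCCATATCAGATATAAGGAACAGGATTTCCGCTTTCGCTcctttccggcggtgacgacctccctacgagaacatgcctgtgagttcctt
The promoter of Isl2, a homeodomain transcription factor gene of motor neurons, is shown because Isl2 was the only listed motor neuron or neural gene that started at one of the 503 boundaries. Its capitals mark the short G-rich word GGGAGGGG.
Isl2, chr9:55540899-55541198, plus strand: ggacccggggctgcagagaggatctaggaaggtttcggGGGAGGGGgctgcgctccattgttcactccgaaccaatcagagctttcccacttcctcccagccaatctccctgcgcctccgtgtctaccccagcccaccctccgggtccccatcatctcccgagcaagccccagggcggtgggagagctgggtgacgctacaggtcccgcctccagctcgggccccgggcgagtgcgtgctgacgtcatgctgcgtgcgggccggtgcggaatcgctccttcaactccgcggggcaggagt

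The libraries held between 110991835 contacts (WT MNs) and 170946673 contacts (WT ESCs) over the listed pairs of bins. A pair was listed only where each genotype had at least 1 contact. In the squares of the 503 boundaries a median of 54.94% of the pairs of bins was listed in ESCs and 54.01% in MNs. Contacts of unlisted pairs are missing from every count below. Their effect on the scores and on the counting intervals was not tested. At one of the 503 boundaries a square held a median of 1383 (WT) and 1166 (PATZ1 KO) contacts in ESCs, and of 1262 and 1124 in MNs. The 95% counting interval of a genotype difference at a single boundary was therefore about ± 0.113 in ESCs and ± 0.116 in MNs (medians, log2). As for the targeted gene, contacts within 127 bins were counted for the bin at the start of Patz1 (chromosome 11, 3288001 to 3296000). There were 553 in the column read as WT and 389 in that read as PATZ1 KO for ESCs, and 378 and 226 for MNs. The share of bins with as large a drop was not computed, so these values do not check how the columns were read.

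The 503 boundaries had higher scores in MNs than in ESCs in the summed contacts, as the rule requires. In ESCs their median score was -0.79 in WT (95% interval over boundaries -0.82 to -0.76) and -0.90 in PATZ1 KO (-0.94 to -0.86). In MNs it was -0.18 in WT (-0.21 to -0.15) and -0.35 in PATZ1 KO (-0.37 to -0.31). Shared boundaries were deeper in ESCs, with median scores of -0.95 (WT) and -0.99 (PATZ1 KO). Each of the 503 boundaries had a higher score in MNs than in ESCs in each genotype, which the choice of members largely fixes. Of all scored bins, 46.6% (WT) and 49.0% (PATZ1 KO) did. A rise of 0.3 or more in the summed contacts, which the rule required, was found in 18.4% of all 290826 bins with at least 500 contacts in both cell states. In the sum of genotypes the rise had a median of 0.57 and reached 1 or more at 48 of 503 boundaries (9.54%), against 0.349% of all scored bins. Because the rule kept only rises of 0.3 or more, this contrast with unselected bins is largely set by the choice. The 2 boundaries just inside the threshold rose by 0.301 (chromosome 9, 56632001 to 56640000, within Lingo1) and by 0.302 (chromosome 7, 100880001 to 100888000, within Arhgef17), and the 2 just outside it by 0.299 and 0.296.

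**Figure D1:**
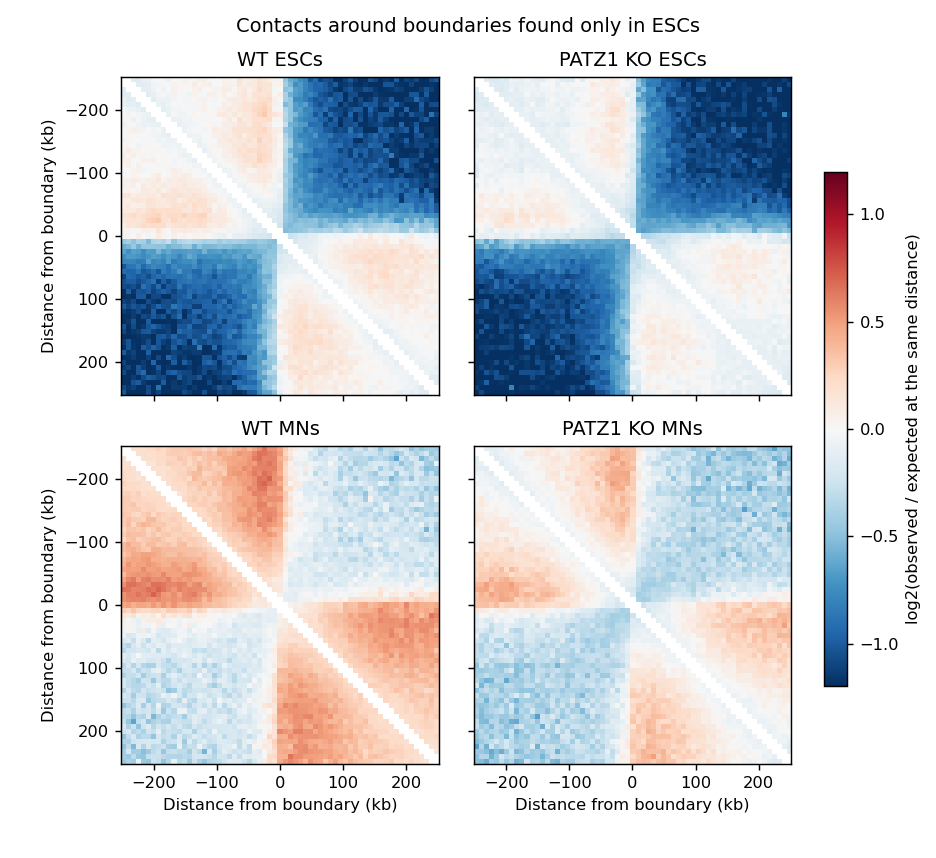
Mean contacts around the 503 boundaries found only in ESCs in each of the 4 libraries, as the log2 of observed over expected contacts, the expectation being the mean for that distance and chromosome; both axes give the distance from the boundary in kb, and contacts of the same or neighbouring bins are left out (white). In WT ESCs contacts across the boundary (upper right and lower left blocks) at 248 to 496 kb were 0.489 of the expectation and in WT MNs 0.862.

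The boundaries were chosen for few contacts across in ESCs, and in ESCs the deficit relative to the expected number was larger at longer distances. At 16 to 56 kb the contacts across were 0.713 of the expected number in WT ESCs and 0.943 in WT MNs. At 248 to 496 kb they were 0.489 of the expected number in WT ESCs and 0.862 in WT MNs. In the PATZ1 KO libraries the values were 0.653 (ESCs) and 0.783 (MNs) at the short distance and 0.471 and 0.798 at the long one. These contacts belong to the square that chose the members, so the gap between cell states is a description. Only listed pairs were counted, and the part that unlisted pairs have in the larger deficit at longer distances was not tested. Contacts within either side of the boundary were also more frequent in MNs: at 64 to 120 kb they rose from 1.06 times the expected number in ESCs to 1.31 times in MNs for WT, and from 0.997 to 1.11 times for PATZ1 KO.

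Because contacts rose on both sides as well as across, the score was set against its surroundings. Over the 31 bins on each side, contacts within the sides were higher in MNs than in ESCs by a median of 0.32 in WT (log2, each library over its chromosome mean; higher at 462 of 503 boundaries) and by 0.10 in PATZ1 KO (384 of 503). These are 91.8% and 76.3% of the boundaries, against 49.8% and 52.0% of all scored bins. At shared boundaries they were higher at 1092 and 808 of 1762. When contacts across were divided by contacts within the sides, the median rise from ESCs to MNs was 0.21 in WT and 0.30 in PATZ1 KO, against -0.15 and -0.20 over all scored bins. The local dip is the median score 88 to 160 kb away minus the score of the boundary itself. Its depth had a median of 0.51 in WT ESCs and 0.33 in WT MNs, and of 0.52 and 0.32 in the PATZ1 KO libraries. At shared boundaries it had a median of 0.80 in WT ESCs and 0.92 in WT MNs. In the summed contacts the dip was shallower in MNs at 426 of 503 boundaries (84.7%), against 50.3% of all scored bins and 32.5% of shared boundaries. Both the ratio and the dip contain the score of the boundary bin, whose rise chose the members, so their change from ESCs to MNs is a description that the choice largely sets. A dip of 0.3 or more was nonetheless present in MNs at 266 of 503 boundaries (52.9%), against 18.9% of all scored bins and 96.1% of shared boundaries. One of 0.1 or more was present at 399 (79.3%), against 32.5% and 99.8%. The label holds in the sense of the rule, but many of these positions had a dip in MNs too. They had one more often than bins in general and less often than shared boundaries. The order against shared boundaries is largely set by the rule, since those needed an MN boundary within 5 bins and these had none.

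**Figure D2:**
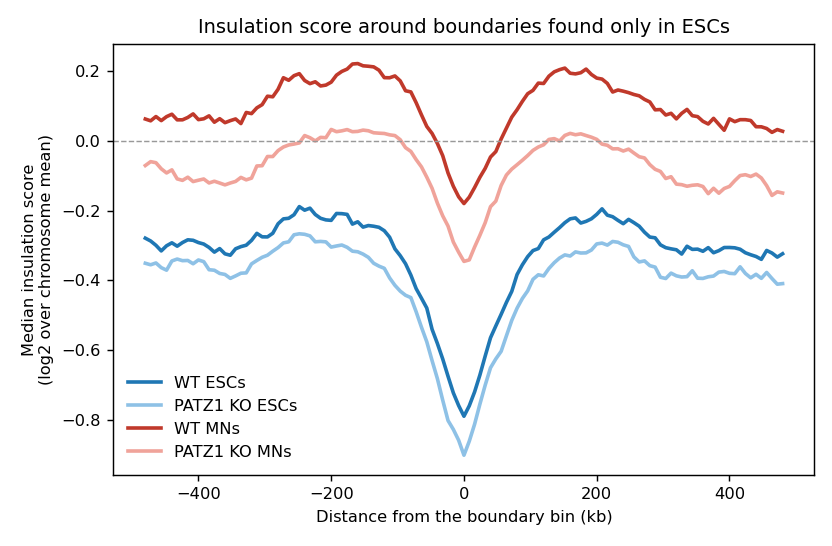
Median insulation score (log2 over the chromosome mean) against the distance from the boundary in kb, for the 503 boundaries found only in ESCs, with 1 line for each library. At the boundary bin the ESC medians were -0.79 (WT) and -0.90 (PATZ1 KO) and the MN medians -0.18 and -0.35, and each PATZ1 KO line lies below the WT line of its cell state over the whole width.

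The missing MN boundary had 2 main forms. At 263 of 503 positions no bin within 5 bins was the lowest of its own window in MNs, and at 239 there was such a bin but its score was not below -0.5. The remaining position failed on its number of contacts. The nearest MN boundary lay a median of 320 kb away (quartiles 176 and 488 kb), and at 68 positions (13.5%) it was between 6 and 15 bins away. The rise was also read in the genotype whose counts were not summed to choose the boundaries. The genotypes are not independent here, since a pair was listed only where both had a contact. Boundaries chosen from the WT libraries alone numbered 558 and had a median rise of 0.49 in PATZ1 KO, and those chosen from the PATZ1 KO libraries alone numbered 496 and had a median rise of 0.59 in WT. Of these, 316 lay within 5 bins of each other, which is 56.6% of the WT list and 63.7% of the PATZ1 KO list.

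The boundaries were unevenly spread over chromosomes. Chromosome 11 held the most, 52, which was 31.3% of its ESC boundaries, and chromosome 19 the fewest, 10. The lowest share was that of chromosome 10, with 16 of 148 ESC boundaries (10.8%), and the density ranged from 0.106 per Mb on chromosome 3 to 0.426 per Mb on chromosome 11. Within ESCs the next boundary on a side lay a median of 416 kb away.

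Boundaries found only in ESCs lay in DNA rich in G and C and close to gene starts. The bins had a median GC content of 45.9% (95% interval 45.4% to 46.4%) and 102 CpG dinucleotides per 8 kb, against 43.8% and 83 at shared boundaries, 40.4% and 58 at boundaries found only in MNs, and 41.4% and 59 over all scored bins. This was a property of the neighbourhood as well, since GC content over the 63 bins around them had a median of 46.0%. A protein-coding gene started in the bin or a bin next to it at 284 of 503 boundaries (56.5%, Clopper-Pearson 95% interval 52.0% to 60.8%). The same share was 46.7% at shared boundaries, 30.1% at boundaries found only in MNs and 16.3% of all scored bins. Gene starts were denser in the surroundings as well. The bin itself held a start at 25.8% of boundaries found only in ESCs and 23.2% of shared boundaries. A bin 480 kb to the left held one at 12.1% and 7.21%, against 6.18% of all scored bins. Clusters of starts were frequent: 2 or more lay within 1 bin at 106 of 503 boundaries (21.1%), against 15.4%, 5.06% and 3.37% in the same order.

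A match to the CTCF core motif on either strand was present in the bin or a bin next to it at 152 of 503 boundaries (30.2%, 26.2% to 34.4%). This was close to the 30.5% of shared boundaries and above the 20.7% of boundaries found only in MNs and the 10.9% of all scored bins. The bin itself held a core at 14.1% of boundaries found only in ESCs and 11.8% of shared boundaries. Cores were denser in the surroundings too. A bin 480 kb to the left held one at 6.96% and 4.77%, and a bin 480 kb to the right at 7.37% and 4.66%. The part of this density in the shares was not tested. A gene start and a CTCF core occurred together at 89 boundaries (17.7%, against 2.84% of all scored bins), and neither at 156 of 503, against 75.6% of all scored bins. Boundaries with and without a gene start had median rises of 0.57 (n = 284) and 0.58 (n = 219) and median ESC scores of -0.91 and -0.76, values that the rule cut at 0.3 and -0.5 and that are given as a description. A match is a description of the sequence and not evidence that CTCF was bound.

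**Figure D3:**
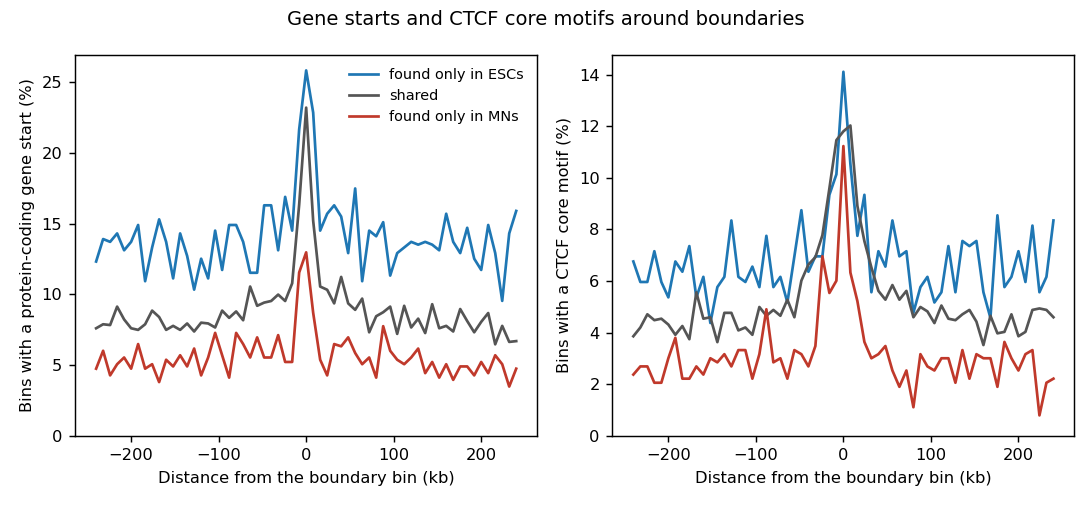
Percent of 8 kb bins with a protein-coding gene start (left) and with a CTCF core motif (right) against the distance from the boundary in kb, for boundaries found only in ESCs, shared and found only in MNs. At the boundary bin itself 25.8% of boundaries found only in ESCs held a gene start and 14.1% a CTCF core motif, and both curves fall within a few bins on each side.

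The G-rich words GGGAGGGG and GGGCGGGG, searched on both strands and able to overlap each other, were both frequent. GGGCGGGG lay within 1 bin at 70.2% of these boundaries, 59.5% of shared boundaries, 45.1% of boundaries found only in MNs and 42.6% of all scored bins. For GGGAGGGG the shares were 93.8%, 92.2%, 86.2% and 87.9% in the same order. In promoters the differences were smaller. Of 361 protein-coding genes assigned to the boundaries, 298 had a RefSeq promoter of 300 bases, and 31.9% of these held GGGCGGGG, against 27.5% of 15687 protein-coding genes. GGGAGGGG was in 16.8% and 15.8%.

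Ribosomal protein genes and histone genes were the listed genes that most often started at these boundaries. Ribosomal proteins build the ribosome and their genes are active in cells of every type. The replication-dependent histone genes lie in dense clusters and supply chromatin during DNA synthesis. Of 75 autosomal ribosomal protein genes, 10 started within 1 bin of a boundary found only in ESCs (13.3%), at 10 different boundaries, against 2.03% of all 20807 protein-coding genes. At shared boundaries the share of ribosomal protein genes was 21.3% and that of all protein-coding genes 5.57%, and at boundaries found only in MNs none of them and 1.10% of all protein-coding genes started. Of 80 histone genes, 9 started at 2 of the boundaries, both on chromosome 13, against 10 at shared boundaries and none at boundaries found only in MNs. Of the developmental lists, 1 of 106 motor neuron and neural genes (Isl2), 1 of 33 retinoic acid and SHH response genes (Stra8), none of 78 pluripotency genes, none of 39 Hox genes and none of 23 cohesin and insulation genes started there. At boundaries found only in MNs, 7 of the 106 motor neuron and neural genes started, against 1.10% of all protein-coding genes.

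The ribosomal protein gene boundaries ranged widely in depth. The deepest in PATZ1 KO ESCs lay at Rps18 (small subunit) and Vps52 (a vesicle-tethering subunit) on chromosome 17 from 33952001 to 33960000. It scored -2.07 (WT) and -2.31 (PATZ1 KO) in ESCs and -1.39 (WT) and -1.73 (PATZ1 KO) in MNs. Both MN scores lie above both ESC scores there, yet the position stayed far below the chromosome mean. At Rpl3 and Syngr1, a synaptic vesicle protein gene (chromosome 15, 80080001 to 80088000), the scores were -2.08, -2.20, -0.67 and -1.05 in the same order, which is one of the 8 largest rises of all (1.29 in the sum of genotypes). At Rpl30 (chromosome 15, 34440001 to 34448000) they were -1.69 and -1.74 in ESCs, and -1.06 in the sum of the MN libraries. At Rpl10a and Fance, a DNA repair gene (chromosome 17, 28320001 to 28328000), they were -1.51, -1.65, -0.23 and -0.47, so that little of the deficit was left in WT MNs. At Rpl23a (chromosome 11, 78176001 to 78184000) they were -1.36, -1.52, -0.48 and -0.59. The 5 other ribosomal protein boundaries, at Rps27, Rpl22, Rpl5, Rpl37a and Rpl31, were shallower in ESCs, from -0.90 to -0.56 in the sum of genotypes. In WT MNs the scores at Rps27 and Rpl31 were 0.07 and 0.04, above the chromosome mean.

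The histone boundary from 21824001 to 21832000 on chromosome 13, by Hist1h4n, Hist1h2ap and Hist1h2br, was among the 8 deepest. It scored -2.61 (WT) and -2.81 (PATZ1 KO) in ESCs and -1.56 and -1.64 in MNs. The one at Hist1h2bh, from 23536001 to 23544000, scored -1.40, -1.53, -0.75 and -0.69. At Isl2 (chromosome 9, 55544001 to 55552000) the scores were -0.66, -0.85, -0.25 and -0.32, and at Stra8, a retinoic acid induced gene of germ cells (chromosome 6, 34928001 to 34936000), they were -0.57, -0.61, -0.17 and -0.15. Neither developmental gene stood at a deep boundary, and at Stra8 the genotypes differed by less than the counting interval in both cell states.

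**Figure D4:**
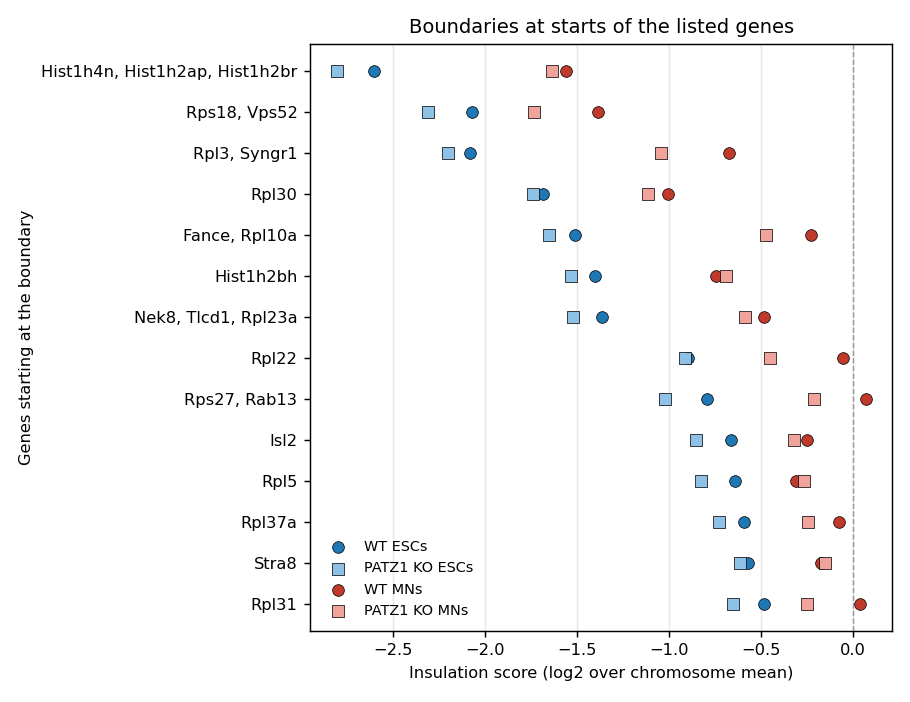
Insulation score (log2 over the chromosome mean) in each of the 4 libraries at the 14 boundaries that hold a start of a listed gene in their bin or a bin next to it, ordered by their ESC score and labelled with the protein-coding genes assigned to them. At every one both MN values lie to the right of both ESC values, from the histone boundary at the top (-2.61 in WT ESCs, -1.56 in WT MNs) to Rpl31 (-0.48 and 0.04). The choice of boundaries by their rise largely fixes this order.

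The deepest boundaries were partly beside stretches with few contacts. A bin was called low when its contacts within 127 bins were under 20% of the median of its chromosome. Of the 503 boundaries, 328 had no low bin among the 63 bins of their window and 15 had more than 5 in a library, and 4 of these 15 were among the 8 deepest. The deepest of all (chromosome 19, 38968001 to 38976000, within Hells, a chromatin remodeller gene) had 3 low bins in WT ESCs and scored -2.81 (WT) and -2.87 (PATZ1 KO) in ESCs and -2.33 and -2.26 in MNs. The pair on chromosome 13 by Ccl28 (119608001 to 119616000), a chemokine gene, and by 3110070M22Rik and Tmem267 (119480001 to 119488000) had 21 and 16 low bins and summed ESC scores of -2.77 and -2.73. At the second of them 2 CTCF core matches with the same 30 surrounding bases stand at 119487646 and 119487834, a repeat of the sequence. The boundary by Ttc5 on chromosome 14 had 13 low bins in either MN library. The largest rise of all, 2.10, belonged to a boundary within Gon4l (chromosome 3, 88848001 to 88856000) that had 14 low bins in WT ESCs and 11 in WT MNs. It scored -2.13 and -2.39 in WT and PATZ1 KO ESCs and -0.05 and -0.25 in MNs. The part that low bins have in these scores was not tested.

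Of the 8 boundaries with the largest rises, 6 had no low bin, and their MN scores ranged from well below to above the chromosome mean. At Khsrp, an RNA-binding protein gene (chromosome 17, 57032001 to 57040000), the score was -0.89 (WT) and -0.97 (PATZ1 KO) in ESCs and 0.52 and 0.37 in MNs. At Hat1, a histone acetyltransferase gene (chromosome 2, 71392001 to 71400000), it was -0.69, -0.95, 0.52 and 0.51 in the same order. Within Cep85, a centrosomal protein gene (chromosome 4, 134144001 to 134152000), it was -1.22, -1.30, 0.22 and -0.10. At Nfs1 and Romo1, a pair of genes for mitochondrial proteins (chromosome 2, 156144001 to 156152000), it was -1.61, -1.76, -0.36 and -0.39. At a position without a protein-coding gene (chromosome 13, 55176001 to 55184000) it was -1.44, -1.52, -0.058 and -0.22. The boundary at Rpl3 and Syngr1, given above, stayed lowest in MNs among these 6. In the summed MN contacts 73 of 503 boundaries (14.5%) had a score above the chromosome mean, as those at Khsrp and Hat1 did, against 48.8% of all scored bins.

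PATZ1 KO was then compared with WT at these boundaries, a contrast the rule did not use. In ESCs the score was lower in PATZ1 KO than in WT at 418 of 503 boundaries (83.1%), against 53.4% of all scored bins and 58.5% of shared boundaries, with a median difference of -0.086 (95% interval over boundaries -0.096 to -0.079). It was lower by 0.1 or more at 222 boundaries (44.1%), against 16.1% of all scored bins, and higher by 0.1 or more at 8 (1.59%), against 12.7%. In MNs the score was lower at 424 of 503 boundaries (84.3%), against 50.3% of all scored bins and 71.5% of shared boundaries, with a median difference of -0.17 (-0.19 to -0.16). It was lower by 0.1 or more at 347 boundaries (69.0%), against 34.3% of all scored bins, and higher by 0.1 or more at 29 (5.77%), against 35.7%. A lower score means fewer contacts across the boundary in PATZ1 KO. Both cell states had a lower score in PATZ1 KO at 353 boundaries (70.2%), against 26.2% of all scored bins and 41.4% of shared boundaries, and a higher one at 14 (2.78%), against 22.5% and 11.4%.

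Other boundaries moved less. At shared boundaries the median difference between PATZ1 KO and WT was -0.019 in ESCs and -0.095 in MNs. It was 0.016 and 0.038 at boundaries found only in MNs, and -0.0079 and -0.0020 over all scored bins. These sets had median GC contents over 63 bins of 43.4%, 40.3% and 41.7% in that order, against 46.0% at the 503 boundaries. No difference with GC content subtracted was computed for the other sets. Boundaries with a gene start fell further than those without, with -0.11 (n = 284) against -0.059 (n = 219) in ESCs and -0.19 against -0.14 in MNs. In MNs, but not in ESCs, those with a CTCF core also lay lower, at -0.23 (n = 152) against -0.14 (n = 351), while in ESCs the values were -0.080 and -0.089. GC content over the 63 bins moved with both features, with medians of 46.9% with and 45.0% without a CTCF core and of 46.8% with and 44.6% without a gene start, and its part in these contrasts was not tested. Since the 4 libraries are the only ones, none of these differences between sets was tested.

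The lower score was not particular to the boundary bin. Each PATZ1 KO profile lay below that of WT also 480 kb to the left, where the ESC medians were -0.28 (WT) and -0.35 (PATZ1 KO) and the MN medians 0.063 and -0.071. Contacts within the sides fell too, by a median of 0.059 in ESCs and of 0.27 in MNs (log2). Divided by contacts within the sides, contacts across differed between PATZ1 KO and WT by 0.0012 in ESCs and by 0.10 in MNs, with all scored bins at 0.031 and -0.0031. In ESCs this ratio was lower in PATZ1 KO at 249 of 503 boundaries (49.5%), against 30.9% of all scored bins. In MNs the sign was turned, and the ratio was lower in PATZ1 KO at 76 of 503 boundaries (15.1%), against 51.2% of all scored bins. The local dip differed by a median of 0.0019 in ESCs and -0.021 in MNs, where it was shallower in PATZ1 KO at 320 of 503 boundaries (63.6%), against 49.3% of all scored bins. The difference in MNs also went with GC content. After the median difference of scored bins with the same GC content was subtracted, -0.078 was left in ESCs and -0.014 in MNs, and when GC content was taken over the 63-bin window, -0.069 and 0.022. With 1 library per genotype, a difference between the genotypes and one between the libraries cannot be told apart.

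**Figure D5:**
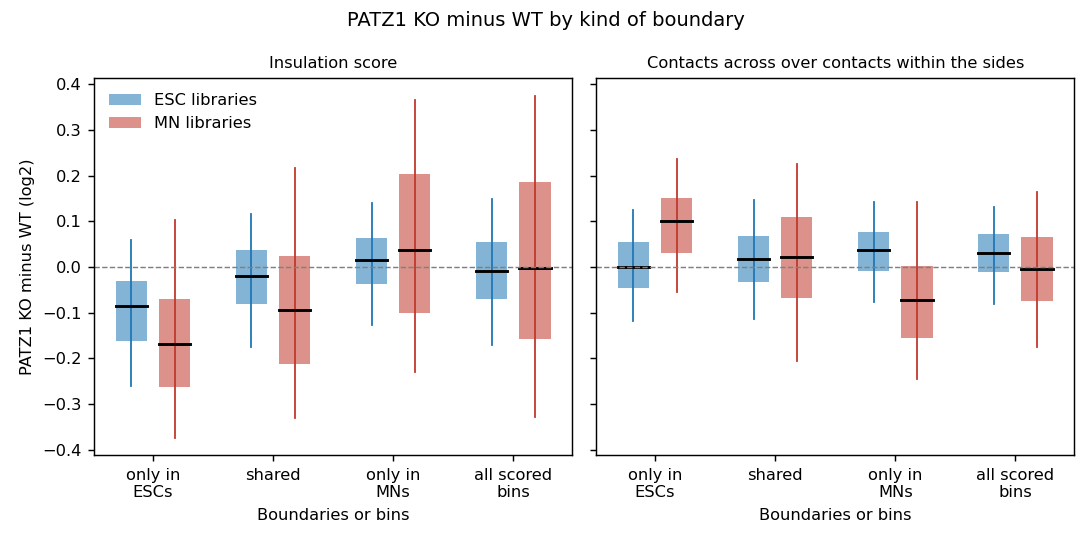
PATZ1 KO minus WT (log2) in ESC and MN libraries for boundaries found only in ESCs (n = 503), shared boundaries (n = 1762), boundaries found only in MNs (n = 632) and all scored bins, for the insulation score (left) and for contacts across over contacts within the sides (right); black lines are medians, boxes the middle 50% and thin lines the 5th to 95th percentile over boundaries or bins. For boundaries found only in ESCs the left medians are -0.086 and -0.17 and the right ones 0.0012 and 0.10.

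The 4 largest falls in PATZ1 KO were the same 4 boundaries in both cell states, all on chromosome 11. At Kpnb1, a nuclear import receptor gene (97184001 to 97192000), the square held 1777 (WT) and 798 (PATZ1 KO) contacts in ESCs and 2614 and 1415 in MNs. The score fell by 0.99 in ESCs (95% counting interval -1.11 to -0.87) and by 0.75 in MNs (-0.84 to -0.66). At Mrpl45, a mitochondrial ribosome gene (97312001 to 97320000), it fell by 0.93 and 0.81. Within Cdk12, a transcriptional kinase gene (98240001 to 98248000), it fell by 0.79 and 0.66. At Tspoap1 (87768001 to 87776000) it fell by 0.70 and 0.72. All 4 lay in or within 31 bins of 2 stretches, 87536001 to 88016000 and 96872001 to 98200000. In these stretches contacts within 127 bins, taken over the median of the chromosome, were fewer in PATZ1 KO. The medians of this fall were 0.82 and 0.77 in ESCs and 0.87 and 0.95 in MNs (log2). Without the 5 boundaries near these stretches the median difference was -0.085 in ESCs and -0.17 in MNs.

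Few boundaries scored higher in PATZ1 KO. In ESCs the 4 largest differences were 0.17 and 0.13 at 2 positions of chromosome 11 that overlap no protein-coding gene (45592001 to 45600000 and 35736001 to 35744000), 0.15 at Ccdc180 (chromosome 4, 45888001 to 45896000) and 0.15 within Cttn, the gene of the actin-binding protein cortactin (chromosome 7, 144440001 to 144448000). In MNs they were 0.29 at 0610010F05Rik (chromosome 11, 23624001 to 23632000), 0.29 within Grm8, a glutamate receptor gene (chromosome 6, 27616001 to 27624000), 0.26 within Nlgn1, a synaptic adhesion gene (chromosome 3, 25648001 to 25656000), and 0.26 at a position without a protein-coding gene (chromosome 2, 8168001 to 8176000). In MNs each of the 4 had a counting interval above 0, for instance 0.20 to 0.37 within Grm8, where the square held 1841 contacts in WT and 2299 in PATZ1 KO. The 4 were chosen for the size of this difference, so the intervals are a description and do not check it. In ESCs the same 4 positions differed by -0.16, 0.0033, 0.044 and 0.057 in that order.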

How the data were processed

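Micro-C libraries of WT and PATZ1 KO ESCs and MNs (1 each, from pools of cells; KO cells were CRISPR-made lines grown from single clones) were made with a Dovetail kit. Mapping and HiCcompare were run for the authors; versions are not given in the sources used here, and the submitters' processing notes name mm10 (GRCm38). The interaction frequencies deposited by the authors are counts, whole numbers of contacts for each pair of 8 kb bins, not scaled. The authors also deposited a signal, the frequencies adjusted by joint normalization against distance, which served as an alternative. Deposited log ratios, scores and p-values of the authors' comparison were not used.

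Contacts were summed, scored and compared with numpy 2.4.6, scipy 1.17.1 and pandas 2.3.3. Depth over listed pairs ranged from 110991835 to 170946673 contacts. Intervals (95%, Clopper-Pearson for shares, binomial order statistics for medians, Poisson for single boundaries) cover counting error or the spread over boundaries only, and neighbouring squares share contacts. Gene starts were those of GENCODE M21 and sequence that of GRCm38.p6. The caller was tested on simulated contacts. Members, gene lists and tests were chosen with earlier results of these data known.

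Boundaries named were the 8 with the lowest ESC score, the 8 with the largest rise, the 4 with the largest and smallest PATZ1 KO minus WT difference in each cell state, all with a start of a listed gene within 1 bin, and those beside the threshold. Genes of a boundary are the protein-coding genes starting in its bin, otherwise in a bin next to it. Alternatives were other cuts, squares, distances, thinning, adjusted frequencies, boundaries chosen in 1 genotype, and GC content; GC content over 63 bins, contacts across over within the sides, the local dip, and leaving out boundaries near depleted stretches or low bins were added after seeing the data.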

Additional observations from a re-analysis of the deposited data

Results flagged for a closer look

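Of the boundaries named, 3 differed between PATZ1 KO and WT in opposite directions in ESCs and MNs, each by at least 0.1 and beyond its counting interval. The boundary at Ccdc180 differed by 0.15 in ESCs and by -0.26 in MNs, and the one within Cttn by 0.15 and -0.19. The one at 0610010F05Rik differed by -0.16 in ESCs and by 0.29 in MNs. Over all 503 boundaries 20 had opposite differences of 0.1 or more (3.98%, against 9.45% of all scored bins), 15 of them lower in PATZ1 KO ESCs and higher in PATZ1 KO MNs (2.98%, against 4.35%). With 1 library per group the difference between the cell states was not tested.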

How the results depend on the processing

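The number of boundaries found only in ESCs was 307 with a minimum rise of 0.5 and lay between 439 and 603 under the other 13 alternatives. The median difference between PATZ1 KO and WT in ESCs was -0.11 with a square of 15 bins and -0.075 with 62 bins. It was -0.078 after subtraction of bins of the same GC content (-0.069 with GC content over 63 bins). It was -0.059 in boundaries chosen from WT and -0.12 in those chosen from PATZ1 KO. For contacts across over within the sides it was 0.0012 (95% interval -0.0077 to 0.011), against 0.031 over all scored bins. In MNs the median difference was -0.21 (15 bins), -0.14 (62 bins), -0.014 (GC content), -0.20 (chosen from WT) and -0.13 (chosen from PATZ1 KO). It turned to 0.022 with GC content over 63 bins and to 0.10 for contacts across over within the sides. The median rise from ESCs to MNs was 0.53 with 15 bins, 0.66 with 62 bins, 0.44 after GC subtraction (0.37 over 63 bins) and 0.21 over within-side contacts in WT, and 0.43, 0.59, 0.50 (0.47) and 0.30 in PATZ1 KO, where boundaries chosen from WT gave 0.49. The share with a gene start was 25.8% in the bin alone, 66.4% with 2 bins on either side and 68.2% with genes of every biotype. The share with a CTCF core was 14.1%, 38.6% and, on the forward strand alone, 15.5%, and 23.4% in boundaries chosen from PATZ1 KO. The median GC content over 3 bins was 46.5% in boundaries chosen from WT and 44.5% in those chosen from PATZ1 KO. The cause was not tested. In these main results 48 of 83 recomputed values moved by less than their interval, or for counts by less than 1.5 times. Of 390 recomputed differences at named boundaries, 24 moved by more than their counting interval and none past 0.1 changed sign. These covered adjusted frequencies, squares of 15 and 62 bins, the closest pairs left out of the square, and thinning. Subtraction of GC content and contacts across over within the sides, which moved the MN median most, were not among them. No paired analysis was possible because each group had 1 library and the labels carry no replicate numbers. A single boundary is resolved only to about ± 0.11, and leaving out a replicate was not possible.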
